A study of Mus musculus with 4 samples.

Results

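The proteasome subunit genes are the mouse genes whose symbols start with Psma, Psmb, Psmc, Psmd or Psme followed by a number. They were found by matching the transcript accession of each probe to a protein-coding RefSeq gene, and 45 of the 21154 genes named on the array met this rule, with 56 probes. Expression was measured on 4 one-colour arrays of sorted bone marrow cells, 1 array for each group. The donor marrow came from C57BL/6 mice carrying JAK2V617F, the activating kinase mutation of myeloproliferative neoplasms, with Ezh2flox/flox and Cre-ERT2, a recombinase switched on by tamoxifen. It was grafted into lethally irradiated wild-type hosts that carry the CD45.1+ leukocyte marker. Once Ezh2, the gene of a repressive histone methyltransferase, had been deleted, the mice were given JQ1, which blocks the acetyl-lysine binding of BET bromodomain proteins, or DMSO, its solvent, over 2 weeks. All 4 groups therefore share the genotype JAK2V617F/Ezh2Δ/Δ, and none has a wild-type control beside it. Lineage-negative c-Kit+ Sca-1+ cells (LSK), which hold stem and multipotent progenitors, and megakaryocyte and erythroid progenitors (MEP) were then sorted directly from the marrow. The promoter driving Cre-ERT2, the age of the mice, the number of mice behind each array and any gate against remaining host cells are not given in the sources used here.

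The 26S proteasome is the barrel-shaped protease that degrades proteins tagged with ubiquitin. Its 20S core consists of stacked rings of alpha subunits, which gate the entry pore, and beta subunits, of which beta 1, beta 2 and beta 5 carry the cutting sites. The 19S particle sits on the end of the core, where a ring of ATPases unfolds the substrate and non-ATPase subunits bind ubiquitin and remove it. In cells of the immune and blood systems the 3 cutting subunits can be replaced by inducible ones (Psmb9, Psmb10 and Psmb8), which gives the immunoproteasome that produces peptides for MHC class I. Subunit genes of the standard proteasome are often expressed together, in mammals partly through the factor NRF1 (gene Nfe2l1).

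Levels are given on the log2 scale as the processed signal relative to the 75th percentile of its array, so a level of 6 lies 6 doublings above that point, and a level is compared between arrays only for the same probe. Those 75th percentiles were 210, 245, 327 and 233 intensity units on the arrays in the order LSK with DMSO, LSK with JQ1, MEP with DMSO, MEP with JQ1, which is the order of every set of 4 values below. Of 55681 probes, 45.6%, 47.4%, 53.2% and 45.2% were well above background on these arrays, and no probe was saturated. The median measured gene shifted by 0.06 between the LSK arrays, by 0.34 between the MEP arrays (JQ1 minus DMSO), by -0.22 from LSK to MEP under DMSO and by 0.07 under JQ1. Every difference below is therefore a log2 difference from which that shift of the median measured gene was taken off. Levels still contain the shift, so an array called lowest or highest by level is ranked with the shift included. With 1 array per group no difference has a replicate check and no test was possible. Error was gauged within the arrays. The scanner software put the error of the signal at about 10% for every member measured on all 4 arrays, which gives 0.20 log2 in a difference. For the other members, Psma8 and Psmb11, it was at least 20.9% and 58.7%. Genes above the median signal are, here and below, those above the median of the genes measured on all 4 arrays. Among them, different probes of the same gene disagreed by an SD of 0.22 for JQ1 in LSK and 0.36 in MEP, and for MEP against LSK by 0.34 with DMSO and 0.24 with JQ1. Neither figure covers the spread between mice, sorts or labelling reactions.

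Most listed markers of the sorted populations differed in the direction of their cell type. Ly6a, which encodes Sca-1, stood at 4.49 and 4.28 on the LSK arrays and at -0.32 and 0.21 on the MEP arrays, and the erythroid regulator Klf1 stood at -1.61 and -1.76 in LSK and at 1.97 and 3.05 in MEP. From LSK to MEP, 10 of 14 LSK markers lay below the median gene under DMSO and 12 of 13 under JQ1. Slamf1 was the highest of the others, at 2.35 and 1.18. All 14 measured MEP markers lay above the median gene in both comparisons, with Slc4a1 the lowest under DMSO at 0.17. The array of DMSO MEP was the least like the others. Its correlation with them over 23013 probes was 0.973 to 0.976. The margin was small, since JQ1 MEP correlated with the LSK arrays at 0.979 and 0.982. The 2 LSK arrays correlated with each other at 0.991. All 18 measured immediate early genes and nuclear RNAs were above the median gene on DMSO MEP relative to DMSO LSK, with a median difference of 1.60. All 18 were below the median gene in JQ1 MEP relative to DMSO MEP, with a median of -2.03. The DMSO MEP array enters both JQ1 against DMSO in MEP and MEP against LSK under DMSO, so these 2 comparisons share it. JQ1 in LSK and MEP against LSK under JQ1 are free of it.

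Of the 45 proteasome genes, 43 were well above background on all 4 arrays, and 42 lay above the median signal of the genes measured on all 4 arrays. The remaining 2 are the tissue-restricted forms. Psmb11, the beta subunit of thymic epithelium, was not well above background on any array. Psma8, the alpha subunit of testis, was well above background on DMSO MEP alone, at -3.76, which is too close to the detection floor for a fold.

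The proteasome genes differed little between the groups. None of the 43 measured members was 2-fold higher or lower in any of the 4 comparisons. The background of all genes was 0.543% higher and 3.22% lower for JQ1 in LSK, and 0.98% higher and 5.77% lower for JQ1 in MEP. It was 5.68% higher and 4.32% lower for MEP against LSK under DMSO, and 3.94% higher and 4.01% lower under JQ1. At 1.5-fold, 0 members were higher or lower for JQ1 in LSK, beside 2.34% and 7.53% of all genes. For JQ1 in MEP 1 was higher and 0 lower, beside 4.1% and 13.7%. For MEP against LSK 0 were higher and 3 lower with DMSO, beside 14% and 11.9%, and 1 was higher and 1 lower with JQ1, beside 8.53% and 10.8%. Each of these shares of members was below the background. With 43 members 1 call makes 2.33%, so 0 calls cannot be told from a background share below that. The background also includes dim genes, whereas 42 members lay above the median signal. The share at these folds among genes above the median signal is not given here. The spread of the members was narrow as well, with an SD of their differences of 0.12, 0.29, 0.29 and 0.27 in these comparisons. Among all 6008 genes above the median signal the SD was 0.28, 0.40, 0.55 and 0.52. The median member lay at -0.04 for JQ1 in LSK, and at 0.15 for JQ1 in MEP, beside 0.10 for all genes above the median signal, but the first moved to 0.10 without the background filter and the second to -0.04 under quantile normalization. From LSK to MEP the median member lay at -0.07 under DMSO, which turned to 0.02 under quantile normalization, 0.03 under normexp correction and 0.10 without the background filter, and at 0.14 under JQ1. The subcomplexes differed more from each other than the family did from all genes, and that relation is not altered by scaling an array by 1 number.

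**Figure D1:**
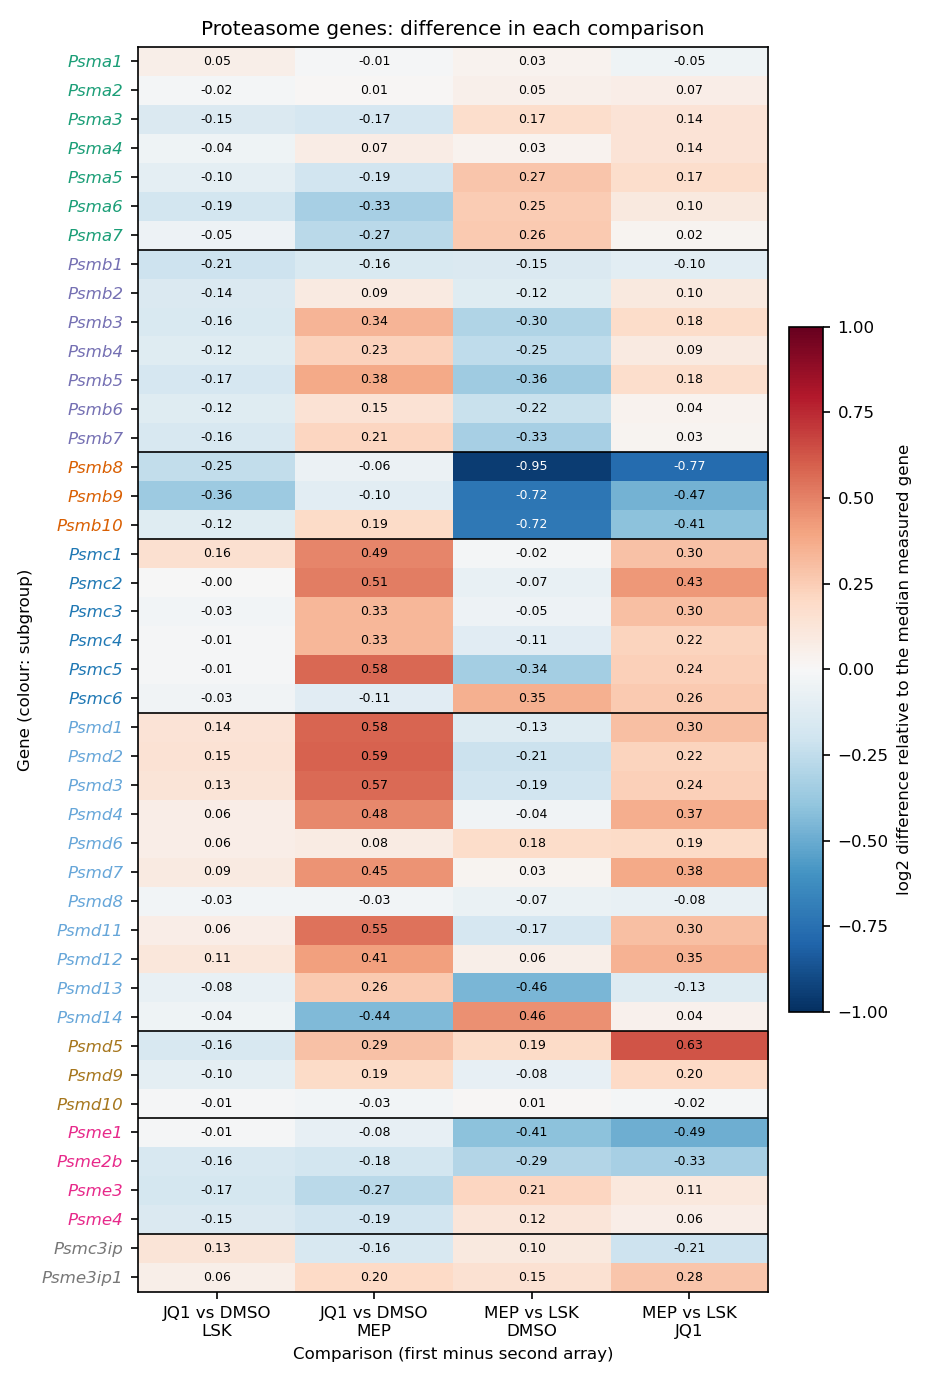
Log2 difference relative to the median measured gene for each of the 43 proteasome genes measured on all 4 arrays (rows, grouped by subcomplex) in each of the 4 comparisons (columns), as a colour scale with the value printed in each cell. The strongest blue lies at the inducible beta subunits in both MEP against LSK columns (Psmb8 at -0.95 and -0.77), and most 19S subunits are red for JQ1 in MEP.

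Among the members, Psmb8 differed most between the cell types under either treatment, and under DMSO the inducible subunits held the 3 largest differences. All 3 that were measured were lower in MEP than in LSK, by a median of 1.65-fold under DMSO and 1.38-fold under JQ1. Psmb8, Psmb9 and Psmb10 were the 3 members at least 1.5-fold lower under DMSO, beside 11.9% of all genes, and Psmb8 was the 1 such member under JQ1, beside 10.8%. Psmb9 and Psmb10 fell short of 1.5-fold under DMSO with quantile normalization (-0.54 and -0.51) and without the background filter (-0.57 for both), whereas Psmb8 passed it under every centred setting in either comparison. In bulk RNA, fewer cells that express a gene and less RNA of it per cell cannot be told apart.

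To show the regions upstream of these genes and of the standard subunits they replace, the 250 bases before the start of 5 of the 6 genes are given from RefSeq on GRCm38.p6 (Psmb7 is named only). Capitals mark matches to 5 motifs that were searched on both strands: the antioxidant response element core TGACNNNGC, the CCAAT box, the interferon-stimulated response element (GAAA again after 2 free bases), the gamma-activated site TTCNNNGAA and the E-box CACGTG.
Psmb8, chr17:34197945-34198194, plus strand: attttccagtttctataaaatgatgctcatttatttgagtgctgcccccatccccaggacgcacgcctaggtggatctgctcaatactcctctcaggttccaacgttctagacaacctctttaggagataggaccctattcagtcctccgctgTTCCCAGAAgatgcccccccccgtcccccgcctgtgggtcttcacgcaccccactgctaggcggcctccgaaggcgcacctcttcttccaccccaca
Psmb5, chr14:54617996-54618245, minus strand: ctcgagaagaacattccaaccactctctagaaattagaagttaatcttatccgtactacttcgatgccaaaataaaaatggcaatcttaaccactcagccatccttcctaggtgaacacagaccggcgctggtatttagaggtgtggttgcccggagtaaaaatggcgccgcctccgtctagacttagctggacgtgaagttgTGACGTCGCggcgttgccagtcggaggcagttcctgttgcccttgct
Psmb9, chr17:34187331-34187580, minus strand: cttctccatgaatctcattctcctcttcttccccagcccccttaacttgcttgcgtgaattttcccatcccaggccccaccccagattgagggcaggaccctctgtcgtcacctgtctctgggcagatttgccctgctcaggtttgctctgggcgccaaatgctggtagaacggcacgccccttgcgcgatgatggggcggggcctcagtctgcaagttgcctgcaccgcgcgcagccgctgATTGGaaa
Psmb6, chr11:70525107-70525356, plus strand: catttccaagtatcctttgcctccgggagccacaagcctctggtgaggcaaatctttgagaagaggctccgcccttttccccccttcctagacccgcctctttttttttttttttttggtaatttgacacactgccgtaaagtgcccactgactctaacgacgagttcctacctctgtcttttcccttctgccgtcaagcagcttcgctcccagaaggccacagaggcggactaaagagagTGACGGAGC
Psmb10, chr8:105938393-105938642, minus strand: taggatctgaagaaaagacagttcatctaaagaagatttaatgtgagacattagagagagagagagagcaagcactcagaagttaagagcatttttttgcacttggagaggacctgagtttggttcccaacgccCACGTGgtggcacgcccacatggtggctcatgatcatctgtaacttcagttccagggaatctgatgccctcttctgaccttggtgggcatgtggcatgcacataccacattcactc

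Psmb8 held the 1 gamma-activated site among the 38 members with a promoter entry, at bases -97 to -89. That motif was in 2.63% of these members and in 7.65% of the promoters of 17492 protein-coding genes. The standard counterparts Psmb5 and Psmb6 each held the antioxidant response element core, at -47 to -39 and at -9 to -1, which occurred in 5 of 38 members (13.2%) and in 12.0% of all coding genes. Psmb9 held a CCAAT box on the other strand at -8 to -4, a motif of 42.1% of members and 39.5% of all. Psmb10 held an E-box at -116 to -111, found in 13.2% of members and 7.61% of all. The interferon-stimulated response element had no match in the 5 windows shown, and it was found in 7.89% of members (Psmb3, Psmd4 and Psmd9) and 3.48% of all. No match overlapped another in these windows. A match describes letters in a window and no binding was measured.

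Psmb8 encodes the inducible form of beta 5, the subunit that cuts after hydrophobic residues. Its level was 6.78 on DMSO LSK, 6.59 on JQ1 LSK, 5.62 on DMSO MEP, and 5.90 for JQ1 MEP. Both LSK arrays were above both MEP arrays. MEP was 1.93-fold lower than LSK under DMSO (-0.95) and 1.70-fold lower under JQ1 (-0.77), which places Psmb8 at the 4.92 and 6.80 percentiles of all measured genes. The standard form, Psmb5, stood at 8.45, 8.35, 7.88 and 8.59 in the same order, where DMSO MEP was the lowest array and JQ1 MEP the highest. The difference of Psmb8 minus that of Psmb5 was -0.59 from LSK to MEP under DMSO and -0.95 under JQ1. It was -0.08 for JQ1 in LSK and -0.43 for JQ1 in MEP.

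Psmb9 encodes inducible beta 1. Its levels of 6.69, 6.39, 5.75 and 5.99 put it below LSK on both MEP arrays, by 1.65-fold under DMSO (-0.72) and 1.38-fold under JQ1 (-0.47). It was also the lowest member for JQ1 in LSK, at -0.36. Its counterpart Psmb6, the standard beta 1 with caspase-like activity, stood at 7.89, 7.83, 7.45 and 7.93, lowest on DMSO MEP and nearly level on the other arrays. Psmb9 minus Psmb6 was -0.50 from LSK to MEP under DMSO and -0.50 under JQ1, while for JQ1 it was -0.24 in LSK and -0.25 in MEP.

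Psmb10, inducible beta 2, stood at 7.93, 7.87, 7.00 and 7.53. The MEP arrays were again the lower ones, by 1.64-fold under DMSO (-0.72) and 1.33-fold under JQ1 (-0.41). Psmb7, the standard beta 2 with trypsin-like activity, stood at 4.67, 4.58, 4.13 and 4.67, and DMSO MEP was its lowest array. Psmb10 minus Psmb7 was -0.38 under DMSO and -0.44 under JQ1 from LSK to MEP, but 0.04 for JQ1 in LSK and -0.02 in MEP. The direction from LSK to MEP was the same in all 3 inducible genes under every centred processing tried, where their median ranged from -0.74 to -0.54 under DMSO and from -0.53 to -0.45 under JQ1. Scaled to the spike-in probes with no centring, which moves the median gene by 0.91, their median under DMSO was 0.19.

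**Figure D2:**
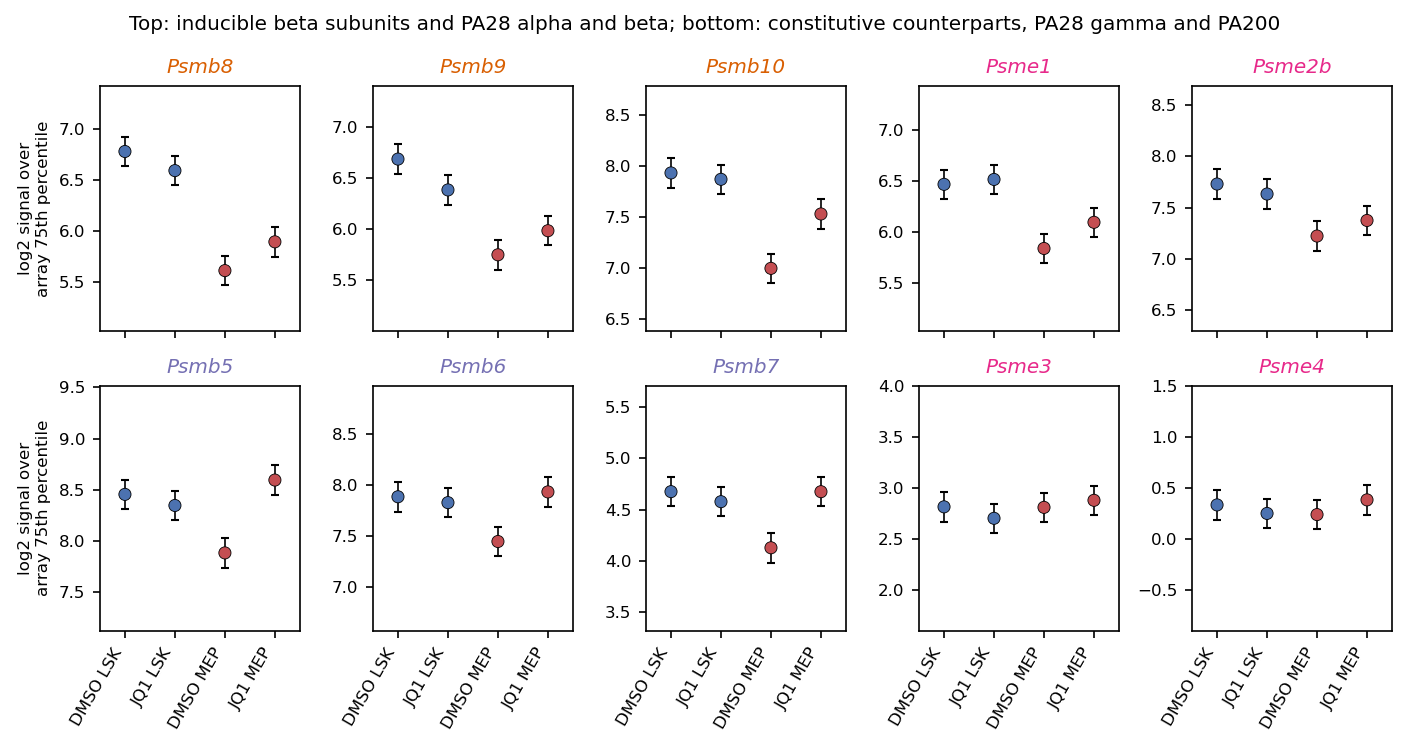
Level of each gene (log2 relative to the array's 75th percentile) on the 4 arrays, LSK in blue and MEP in red, with bars for the scanner software's error of 10% of the signal. The 3 inducible subunits, Psme1 and Psme2b in the upper row are lower on both MEP arrays than on both LSK arrays (under spike-in scaling the median DMSO difference of the 3 is 0.19), whereas Psmb5, Psmb6 and Psmb7 in the lower row are lowest on DMSO MEP.

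Psmb8 and Psmb9 lie in the MHC region of chromosome 17 in the order Psmb9, Tap1, Psmb8, Tap2, where Tap1 and Tap2 encode the transporter that carries peptides into the endoplasmic reticulum. Tap1 stood at 2.51, 2.43, 2.12 and 1.99 and Tap2 at 6.31, 6.43, 5.75 and 6.03. Both neighbours were lower on the MEP arrays, by -0.18 and -0.34 under DMSO and by -0.51 and -0.47 under JQ1. Across the 12 listed genes of MHC class I presentation, 11 lay below the median gene in MEP against LSK under DMSO (median -0.31) and 9 under JQ1 (median -0.35). The lowest was Erap1, the peptidase that trims peptides for MHC class I, at -1.10 and -0.92. The tapasin gene Tapbp was at -0.91 and -0.57. Nlrc5, the transactivator of class I genes, was the highest under DMSO at 0.60 and lay at -0.47 under JQ1.

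Genes of the interferon response were also mostly lower in MEP. Of the 23 measured, 18 lay below the median gene in MEP against LSK under DMSO (median -0.62). Of these, 4 were lower by 2-fold or more, beside 4.32% of all genes. Under JQ1, 20 of 21 lay below it (median -0.72), 6 of them by 2-fold or more, beside 4.01% of all genes. The other way, 2 genes were at least 1.5-fold higher under DMSO, beside 14% of all genes, with Oas2 the highest at 0.82. The lowest were Ifit3 under DMSO, at -2.02, and Ifi44 under JQ1, at -2.19. Markers of other cells also differed. The 14 listed lymphoid genes had a summed level, in multiples of the 75th percentile, of 273, 61.2, 90.7 and 38.6 on the 4 arrays, with Pax5 not well above background on any array. All 13 measured under DMSO were lower in MEP than in LSK (median -1.27), and 11 of 12 under JQ1 (median -0.74). The 10 antigen-presenting cell markers summed to 911, 493, 820 and 551, with medians of -0.19 under DMSO and 0.52 under JQ1. The 11 granulocyte and monocyte markers summed to 1850, 1143, 1272 and 2232, with medians of -0.30 and 0.92. They ranged from F13a1 at -2.10 to Camp at 3.84 under DMSO, and from Lyz2 at -0.59 to S100a8 at 3.12 under JQ1. The part of these cells in the level of the inducible subunits was not tested.

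For JQ1 in LSK, Psmb9 and Psmb8 were the 2 of 43 members (4.65%) below the spread between probes, at -0.36 and -0.25, and 0 members were above it. Of the 6008 genes above the median signal, 11.8% lay below it and 14.7% above it, so neither share of members exceeded the background. On the same pair of arrays all 12 measured lymphoid markers were lower with JQ1 (median -2.39, Vpreb3 the lowest at -2.78). So were all 9 measured antigen-presenting cell markers (median -1.34, Cd74 the lowest at -1.86), and 17 of 23 interferon genes (median -0.22, Ifi27l2a the lowest at -1.61). Their part in the lower Psmb8 and Psmb9 was not tested.

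The 7 standard beta subunits include 4 that do not cut and hold the ring together. All 7 lay below the median gene for JQ1 in LSK (median -0.16) and for MEP against LSK under DMSO (median -0.25). For JQ1 in MEP, 6 of 7 lay above it (median 0.21, which was -0.00 under quantile normalization), and from LSK to MEP under JQ1 the median was 0.09. Psmb5 was the highest of them for JQ1 in MEP, at 0.38 (1.30-fold), and its second probe gave 0.37. The exception was Psmb1, a non-catalytic subunit, with levels of 6.18, 6.03, 5.81 and 5.99 and JQ1 differences of -0.21 in LSK and -0.16 in MEP. DMSO LSK was its highest array. Psmb3, also non-catalytic, stood at 7.51, 7.41, 6.99 and 7.66 and was the highest from LSK to MEP under JQ1, at 0.18. Psmb2 stood at 3.37, 3.29, 3.03 and 3.46, with DMSO MEP as its lowest array by level. Its difference from LSK to MEP under DMSO was -0.12. Psmb4 was neither the highest nor the lowest of the standard beta subunits in any comparison.

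The alpha ring genes encode the subunits through which the 19S particle and the activators dock. The 7 measured genes spanned -0.19 to 0.05 for JQ1 in LSK (median -0.05, though 0.07 without the background filter) and -0.33 to 0.07 for JQ1 in MEP (median -0.17). From LSK to MEP all 7 lay above the median gene under DMSO (median 0.17) and 6 of 7 under JQ1 (median 0.10). Psma6 was the lowest for JQ1 in both cell types, at -0.19 and -0.33, with levels of 6.12, 5.99, 6.15 and 6.16. Those arrays were nearly level before the shift of the median gene. Psma5 stood at 6.38, 6.34, 6.44 and 6.59, and was the highest from LSK to MEP, at 0.27 under DMSO and 0.17 under JQ1. Psma4, at 4.61, 4.63, 4.43 and 4.84, was the highest for JQ1 in MEP (0.07) and the lowest from LSK to MEP under DMSO (0.03). Psma1, at 6.24, 6.36, 6.06 and 6.38, was the highest for JQ1 in LSK, at 0.05. None of the alpha ring differences named here exceeded the spread between probes of one gene.

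The 19S genes had the largest JQ1 median of the subcomplexes, and it was in MEP. Of the 17 subunits of this regulatory particle, 14 lay above the median gene (median 0.45, 1.37-fold), beside 62.9% of all genes above the median signal. That median ranged over the centred settings from 0.24 under quantile normalization to 0.48 with all probes averaged. Above the spread between probes were 11 of 43 members (25.6%), 10 of them 19S genes, and 1 member (2.33%) lay below it, where the background of genes above the median signal was 17.4% above and 11.3% below. The count of 11 depended on the processing. Of these members, only Psmd1, Psmd2 and Psmd11 stayed above that spread in every centred setting, with lowest values of 0.38, 0.37 and 0.41. The spread itself was taken from the main setting. In LSK the 19S median was 0.06, and 9 of 17 lay above the median gene. The 19S median minus the alpha ring median was 0.62 (1.54-fold) for JQ1 in MEP and ranged from 0.54 to 0.67 over the centred settings. It was 0.11 for JQ1 in LSK, -0.24 from LSK to MEP under DMSO and 0.17 under JQ1. Relative to LSK, the 19S genes were thus low against the alpha ring on the DMSO MEP array and high against it on the JQ1 MEP array. Scaled to the spike-in probes with no centring, the 19S median for JQ1 in MEP was -0.08, while the gap to the alpha ring stays the same under any such scaling.

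**Figure D3:**
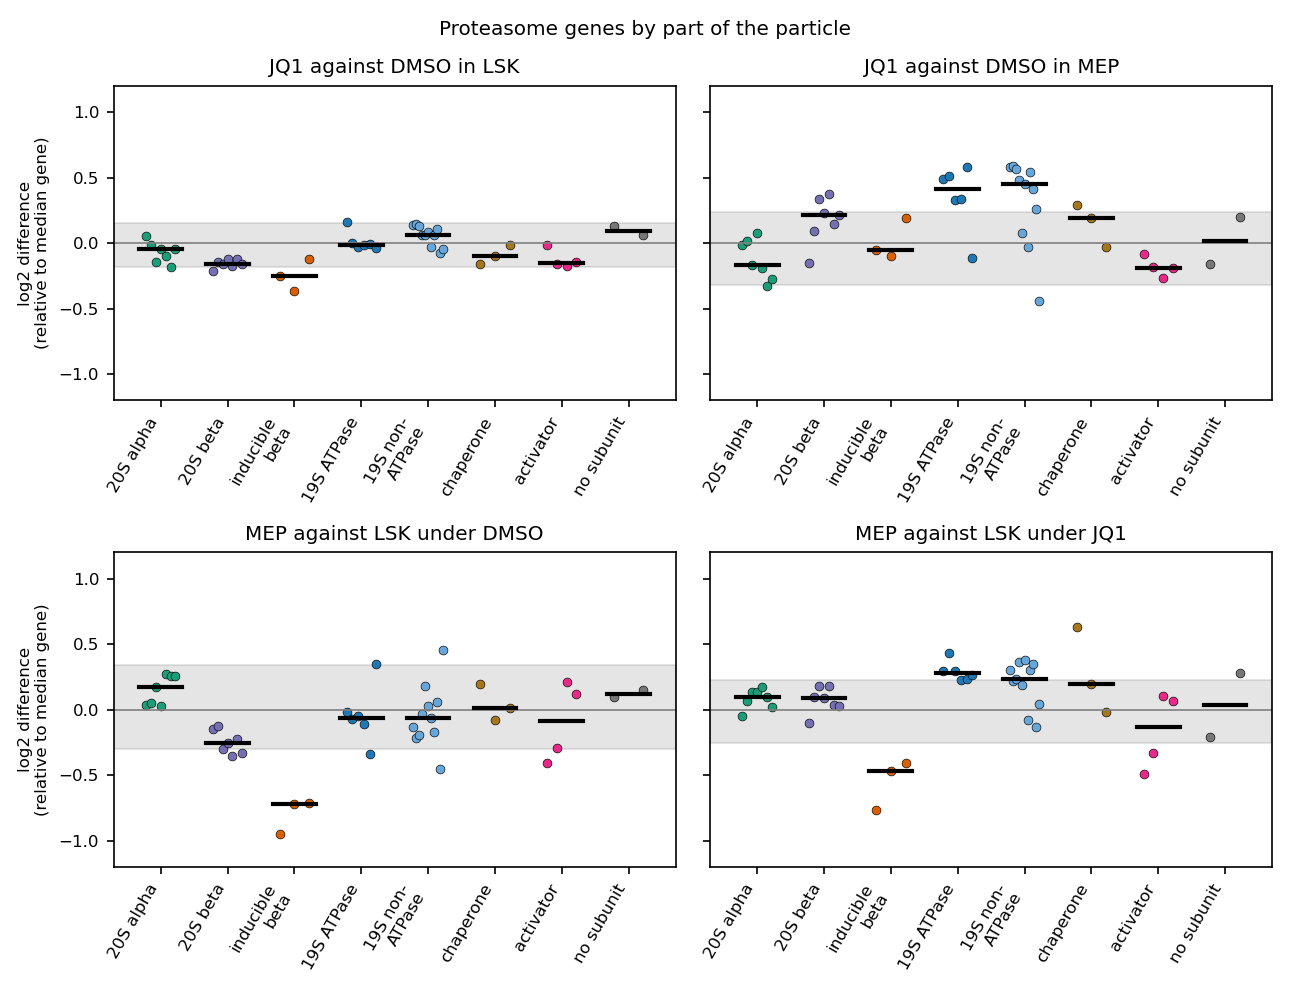
Log2 difference relative to the median measured gene of each proteasome gene (points), by subcomplex, in the 4 comparisons. The black bar is the subgroup median and the grey band the interquartile range of all measured genes; for JQ1 in MEP the 19S medians of 0.41 and 0.45 lie above the alpha ring at -0.17 (the 19S median is -0.08 under uncentred spike-in scaling), and the inducible beta subunits lie lowest in both MEP against LSK panels.

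In the ring of ATPases, 5 of 6 genes lay above the median gene for JQ1 in MEP (median 0.41). Psmc5, which encodes Rpt6, was the highest at 0.58 (1.49-fold), with levels of 4.84, 4.89, 4.28 and 5.20. It was lowest on DMSO MEP and highest on JQ1 MEP. Psmc2 (Rpt1) stood at 6.06, 6.12, 5.76 and 6.62, a JQ1 difference in MEP of 0.51 that its second probe put at 0.47. Psmc1 (Rpt2), which has a role in opening the gate of the core, stood at 6.64, 6.87, 6.41 and 7.23. It was the highest of all members for JQ1 in LSK, at 0.16, and lay at 0.49 in MEP, where its second probe gave 0.45. Psmc4 stood at 4.91, 4.96, 4.58 and 5.25, with DMSO MEP again the lowest array, and was the lowest ATPase from LSK to MEP under JQ1, at 0.22. Psmc6 (Rpt4) was the exception. Its levels of 3.51, 3.54, 3.65 and 3.87 put both MEP arrays above both LSK arrays, with a JQ1 difference of -0.11 in MEP and a difference of 0.35 from LSK to MEP under DMSO. Psmc3 lay at 0.33 for JQ1 in MEP and its second probe at 0.28.

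Among the 11 non-ATPase subunits, 9 lay above the median gene for JQ1 in MEP (median 0.45), and 8 in LSK (median 0.06). Psmd2 (Rpn1), a docking site for ubiquitin shuttles, was the 1 member of the family at least 1.5-fold higher, beside 4.1% of all genes, at 0.59 (1.51-fold). It sat at the threshold: its difference ranged from 0.37 to 0.62 over the centred settings and fell short of 1.5-fold under quantile normalization (0.37), normexp correction (0.51), no background filter (0.50) and centring on the genes above the median signal alone (0.49). With all probes averaged Psmd1 (0.61), Psmc5 (0.61) and Psmd3 (0.60) passed it too. Its levels were 4.89, 5.10, 4.46 and 5.39. The scaffold gene Psmd1 (Rpn2) stood at 5.86, 6.06, 5.52 and 6.43, and the lid gene Psmd3 (Rpn3) at 6.84, 7.03, 6.44 and 7.34. All 3 had DMSO MEP as their lowest array and JQ1 MEP as their highest. Psmd11 (Rpn6), which clamps the lid to the core, stood at 2.81, 2.94, 2.42 and 3.31, a difference of 0.55. Psmd4 (Rpn10), a receptor for ubiquitin chains, had a JQ1 difference of 0.48 in MEP, and Psmd12 (Rpn5) one of 0.41 by its brighter probe and 0.16 by its dimmer one. Psmd7 (Rpn8), the partner of the deubiquitinase, stood at 4.14, 4.29, 3.95 and 4.74, and was the highest from LSK to MEP under JQ1, at 0.38.

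Psmd14 (Rpn11), the deubiquitinase of the lid, went the other way. Its levels were 3.48, 3.51, 3.72 and 3.62, so the DMSO MEP array was the highest rather than the lowest. Its JQ1 difference of -0.44 in MEP was the lowest of all 43 members and the 1 below the spread between probes, and its 0.46 from LSK to MEP under DMSO was the highest. Under JQ1 it lay at 0.04. Psmd13 (Rpn9) stood at 5.64, 5.63, 4.97 and 5.57 and was the lowest 19S gene from LSK to MEP, at -0.46 under DMSO and -0.13 under JQ1. The remaining Psmd6 and Psmd8 lay at 0.08 and -0.03 for JQ1 in MEP.

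Psmd5, Psmd9 and Psmd10 encode chaperones of 19S base assembly and are no part of the finished particle. Psmd5 stood at 2.88, 2.78, 2.85 and 3.48, high on JQ1 MEP alone, and was the 1 member at least 1.5-fold higher from LSK to MEP under JQ1 (0.63, 1.55-fold), beside 8.53% of all genes, although it fell just short of 1.5-fold under quantile normalization (0.58) and without the background filter (0.56). Under DMSO it lay at 0.19. Psmd9 stood at 2.42, 2.38, 2.12 and 2.65 and Psmd10 at 1.72, 1.77, 1.52 and 1.82, both with DMSO MEP as the lowest array by level. With the shift of the median gene taken off, little of this remained. From LSK to MEP under DMSO they lay at -0.08 and 0.01, and for JQ1 in MEP at 0.19 and -0.03. The second probe of Psmd9, dimmer but well above background, stood at -0.91, -0.33, -0.24 and 0.18, lowest on DMSO LSK. It gave 0.52 for JQ1 in LSK and 0.88 from LSK to MEP under DMSO. Its differences departed from those of the first probe by up to 0.96 on the log2 scale, so the values of Psmd9 depend on the probe.

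The activators PA28 and PA200 cap the core and open it without ATP. All 4 lay slightly below the median gene for JQ1, by -0.17 to -0.01 in LSK and by -0.27 to -0.08 in MEP, though with all probes averaged the LSK median was 0.00, and none went beyond the spread between probes. Psme1, the alpha subunit of the interferon-inducible PA28 ring, stood at 6.47, 6.51, 5.84 and 6.09. Both MEP arrays were below both LSK arrays, by 1.33-fold under DMSO (-0.41) and 1.40-fold under JQ1 (-0.49). Psme3, which encodes the nuclear PA28 gamma, stood at 2.81, 2.70, 2.81 and 2.88, with the arrays nearly level. The difference of Psme1 minus that of Psme3 from LSK to MEP was -0.62 under DMSO and -0.60 under JQ1.

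No probe matched Psme2, the PA28 beta gene near Psme1 on chromosome 14, by its accession. The 3 probes of Psme2b, a copy of Psme2 on chromosome 11, may hybridise with transcripts of both, so the identity of their signal is uncertain. The brightest stood at 7.73, 7.63, 7.22 and 7.37, lower on both MEP arrays, with -0.29 under DMSO and -0.33 under JQ1. Its second probe gave -0.24 and -0.39, whereas the remaining dim one gave 0.47 and -1.09. Psme4 (PA200), an activator known from sperm and DNA repair, stood at 0.33, 0.25, 0.24 and 0.38, with no array apart, and its second probe differed in sign for JQ1 in both cell types.

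Psmc3ip and Psme3ip1 carry the family's letters but encode binding partners of other proteins. Psmc3ip, a meiotic recombination factor, stood at 2.01, 2.20, 1.89 and 2.07, and Psme3ip1, which binds PA28 gamma, at 2.31, 2.43, 2.24 and 2.78. Neither went beyond the spread between probes for JQ1. Leaving out these 2 genes, the 3 chaperones and Psme2b kept the members' medians at -0.04, 0.15, -0.07 and 0.14 in the 4 comparisons.

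JQ1 differences could be set side by side between the cell types, since the LSK and MEP pairs share no array. The MEP difference minus the LSK difference had a median of 0.26 over the 43 members and was positive in 29 (67.4%). Over 12016 genes, dim ones included, the median was 0.01 and 50.8% were positive. It was 0.35 for the standard beta subunits (7 of 7 positive), 0.35 for the ATPases (5 of 6) and 0.36 for the non-ATPases (9 of 11), but -0.07 for the alpha ring (2 of 7) and -0.06 for the activators (0 of 4). The members' median depended on the processing, from 0.03 without the background filter to 0.27, and 0.07 under quantile normalization. Centred on the genes above the median signal alone, it was 0.19. Those genes had medians of 0.10 for JQ1 in MEP and 0.03 in LSK. Their share with a positive difference between the cell types is not given here. Across the 43 members the LSK and MEP differences had a Pearson correlation of 0.51 and a Spearman correlation of 0.54. Over the 12016 genes these were 0.16 and 0.11. The points share the arrays and their scaling, and the members are subunits of 1 complex, so these coefficients are descriptions. No member had JQ1 differences of opposite sign and at least 0.5 in both cell types.

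**Figure D4:**
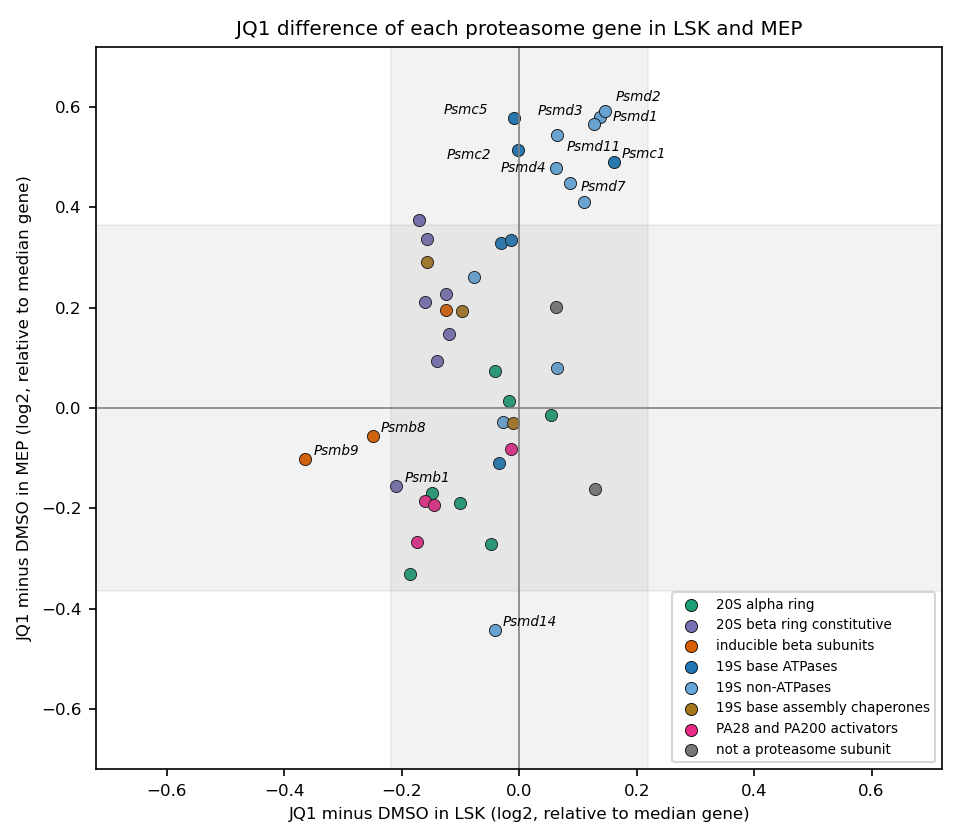
JQ1 minus DMSO log2 difference relative to the median gene in LSK (horizontal) and in MEP (vertical) for the 43 measured proteasome genes, coloured by subcomplex. Grey bands mark the spread between probes of one gene (SD 0.22 in LSK and 0.36 in MEP). In the setting shown, 11 genes, 10 of them 19S subunits, lie above the band in MEP (25.6% of members, beside 17.4% of genes above the median signal). Of these, only Psmd1, Psmd2 and Psmd11 stay above it in every centred setting. Psmd14 lies below the MEP band, and Psmb8 and Psmb9 lie left of the LSK band.

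Other genes of the pathway were read from lists for JQ1 in MEP. Among 15 measured assembly factors and partners, 10 lay above the median gene, with a median of 0.04, where 62.9% of all genes above the median signal did so. The highest was Adrm1 (Rpn13), a ubiquitin receptor of the 19S particle that the name rule leaves out, at 0.48, with levels of 4.04, 4.14, 3.71 and 4.53. Usp14 and Uchl5, the deubiquitinases docked on the particle, lay at 0.43 and 0.39. Akirin2, which carries proteasomes into the nucleus, lay at 0.40. The core chaperones Psmg1 to Psmg4 spanned -0.30 to 0.26, and Pomp, the maturation factor, lay at 0.04. Sem1, a small lid subunit that the name rule also leaves out, lay at 0.03. Txnl1, a thioredoxin-like protein bound to the 19S particle, lay at -0.27 and Zfand5, a zinc finger protein that activates the 26S proteasome, at -0.23. Ecpas, an adaptor of 26S proteasomes, was the 1 of these 15 genes past 2-fold, beside 0.98% of all genes higher and 5.77% lower. It stood at 1.10, 1.14, 1.81 and 1.09, high on DMSO MEP alone, which gave -1.06 for JQ1 in MEP and 0.92 from LSK to MEP under DMSO.

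The listed regulators of proteasome genes had a median of -0.07 for JQ1 in MEP, with 7 of 16 above the median gene, and of -0.02 in LSK. Nfe2l1, which encodes NRF1, had low levels of -1.18, -1.51, -1.80 and -1.52, highest on DMSO LSK, and JQ1 differences of -0.40 in LSK and -0.06 in MEP. Vcp, the ATPase that helps to release NRF1 from the endoplasmic reticulum, was the highest regulator at 0.59, with levels of 6.62, 6.81, 6.06 and 6.99. Maff, a small MAF partner of NRF factors, was the lowest at -1.67, and the same-family Mafk lay at -0.97, both being highest on the DMSO MEP array. The ubiquitin gene Ubb lay at -0.03, while Uba1, which encodes a ubiquitin-activating enzyme, lay at 0.62. Of 13 measured oxidative stress genes controlled by NRF2, 10 lay above the median gene (median 0.40), beside 62.9% of all genes above the median signal. The highest was Me1, the malic enzyme gene, at 1.00, and the lowest was Hmox1 at -0.80.

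Marker lists differed between the MEP arrays as well. For JQ1 in MEP, 10 of 15 MEP markers lay above the median gene (median 0.23), where 62.9% of all genes above the median signal did so. The highest was Hba-a1, an alpha globin gene, at 1.45, and the lowest was Car1 at -0.71. The list summed to 333 on DMSO MEP and 457 on JQ1 MEP. The granulocyte and monocyte markers summed to 1272 and 2232, with 8 of 11 above the median gene (median 0.41). The immediate early genes and nuclear RNAs summed to 586 and 186. Of 13 measured lymphoid markers 11 lay below the median gene (median -1.18), as did all 9 measured antigen-presenting cell markers (median -0.69). So did 19 of 21 interferon genes (median -0.40) and 8 of 13 LSK markers (median -0.06). The part of these differences in the 19S values of MEP was not tested.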

How the data were processed

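RNA of sorted bone marrow cells was measured on 4 one-colour arrays, 1 per group, from 20 ng of total RNA, per the labels. Scans were read with Feature Extraction 10.7.1.1 (protocol GE1_107_Sep09, array design 028005, mm9 probe positions), per the file headers. The deposited scanner output gives the background-subtracted, detrended signal as an intensity, its error, and yes or no marks of other kinds for background, saturation and outliers, used as filters. The authors' deposited table gives a ratio on the linear scale, which was the same signal divided by 1 constant per array for at least 99.9% of probes with a value above 1 (within 1%), and it served as an alternative.

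The log2 of the deposited intensity was averaged over the spots of a probe without an outlier mark and set relative to the 75th percentile over 55681 non-control probes. Probes were named by transcript accession through RefSeq (GRCm38.p6), and 28026 (50.3%) received a single symbol. Each gene took its brightest probe, with every probe of a member checked. A gene was measured in a comparison when its probe was well above background without an outlier mark on both arrays. Differences were centred on the median measured gene, and 2-fold was the threshold, with 1.5-fold as an alternative. With 1 array per group no test, SD over replicates or p-value could be had. The number of arrays limits the precision. The levels of every array are given for members 2-fold or more apart, for the inducible subunits and their counterparts, for the activators, and for the highest and lowest member of each subgroup in each comparison; other members are given by range and count. A few further members and listed genes were named after their values were seen. The members, gene lists, centring and thresholds were chosen with earlier results of these data known. Promoter motifs were searched in the 250 bases before the start.

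Alternatives were no centring, scaling to spike-in probes or to the median of all probes, quantile normalization, normexp background correction (offset 50), the deposited table, the mean over a gene's probes, no background filter, genes above the median signal, and fewer members. The scanner output holds no mean signal, so normexp used the median signal and median background. Calculations used python 3.11.15, pandas 2.3.3, numpy 2.4.6, R 4.3.3 and limma 3.58.1, and the steps were checked on simulated data.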

Additional observations from a re-analysis of the deposited data

How the results depend on the processing

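No paired analysis was possible because each group has 1 array and the groups share only the number 1. At 1.5-fold in place of 2-fold, the number of proteasome genes higher was 1 for JQ1 in MEP and 1 for MEP against LSK under JQ1, and the number lower was 3 for MEP against LSK with DMSO and 1 with JQ1, in place of 0. Without the background filter, 1 member (Psma8) was higher in MEP than in LSK under DMSO and 1 under JQ1. With no centring, scaling to the 75th percentile made 1 member lower in MEP under DMSO. Scaling to the 8 spike-in probes gave medians of 0.59 for JQ1 in LSK, -0.38 for JQ1 in MEP and 0.85 for MEP against LSK under DMSO, 12 members higher in the last, 1 lower under JQ1, and -0.90 for JQ1 in MEP minus JQ1 in LSK. Scaling to the median of all probes gave 0.90 for JQ1 in MEP with 16 members higher, 3 lower in MEP under DMSO, and 0.76 for the difference between cell types. These uncentred settings move all genes together: the median gene shifted by -0.52 to 0.91 with the spike-in probes and by -0.32 to 0.75 with the median of all probes. The share of all genes past 2-fold under them is not given here, so their counts of members have no background. Why the spike-in and signal scales differ was not tested. Over the other settings the medians ranged from -0.07 to 0.10 for JQ1 in LSK, -0.04 to 0.17 for JQ1 in MEP, -0.07 to 0.10 for MEP against LSK under DMSO, 0.07 to 0.14 under JQ1 and 0.03 to 0.27 for the difference between cell types. Leaving out genes that are no stable subunit and Psme2b was chosen after seeing the data. Psma8 and Psmb11 are limited by signal near background, and differences under about 0.20 lie within the software's error.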
